A study of Mus musculus with 37 samples.

Results

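The genes examined here encode the proteins that form and dissolve a blood clot, and most of them are made by the hepatocyte and secreted into plasma. The set was listed by name as 34 genes of coagulation and fibrinolysis, of which 33 had at least 1 probe in the count table and 31 had a probe with enough counts to be tested, out of 13004 genes tested in all. By role, 17 are procoagulant, 9 anticoagulant and 6 fibrinolytic, and 2 belong to the vitamin K cycle, of which Ggcx was measured and Vkorc1 was not analysed here. Serpina5, an inhibitor of activated protein C, and Plat, the tissue plasminogen activator, were in the table but under the filter, with at most 7 and 8 counts in any mouse.

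The livers came from adult wild-type (WT) mice of the outbred CD1 stock, Crl:CD1(ICR), that received HFPO-DA, a short-chain perfluoroalkyl ether acid given as its ammonium salt, by oral gavage once a day at 1 of 3 doses (0.1 mg/kg, 0.5 mg/kg and 5 mg/kg of body weight each day), or deionized water alone (0 mg/kg). From the lowest dose to the highest, controls first, there were 5, 5, 5 and 4 males, and 5, 5, 4 and 4 females. Males received 84 to 85 doses, beginning 70 days before mating and ending with the mating period, and females 53 to 65 doses, beginning 14 days before mating and ending on lactation day 20 or 21. All of the females sampled, controls included, had therefore been through pregnancy and lactation. The paper also gives the males a younger age than the females in its account of the dosing. Sex, age, reproductive state and number of doses therefore cannot be told apart in any comparison between males and females. TempO-Seq was run on sections of fixed, paraffin-embedded liver. In this assay a pair of probes is ligated on its target transcript and the product is counted. Since each probe reads a short stretch of 1 transcript with its own efficiency, levels are compared between mice and not between genes. Expression is given as CPM, counts scaled to a common library size after TMM normalization, and differences as log2 fold changes (log2FC).

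Coagulation proceeds through a chain of zymogens that are cleaved to active serine proteases. Tissue factor (F3) and factor VII (F7) open the extrinsic arm, and the contact factors kallikrein (Klkb1), high molecular weight kininogen (Kng1), factor XII (F12) and factor XI (F11) open the intrinsic arm. Both lead to factor X (F10), to thrombin (F2) and to the cleavage of fibrinogen, which is built from the products of Fga, Fgb and Fgg and is cross-linked by factor XIII (F13a1 and F13b). Antithrombin (Serpinc1), heparin cofactor II (Serpind1) and the protein C system (Proc, Pros1, Thbd) restrain the chain, and plasmin, made from plasminogen (Plg), dissolves fibrin. Several of the zymogens and the proteins C, S and Z need γ-carboxylation by Ggcx, with vitamin K as cofactor, to bind membranes. The liver is the main source of most of these proteins, while F8, Vwf, Thbd and Tfpi are made largely by endothelium.

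Several members lie side by side in the genome, and the start sites of 5 of those described in full below are shown first. Fgg (chromosome 3 from 83007724 to 83015049), Fga (chromosome 3 from 83026076 to 83033627) and Fgb (chromosome 3 from 83040141 to 83049863, on the minus strand) form 1 cluster on GRCm38. F7 (chromosome 8 from 13026034 to 13035809), F10 (chromosome 8 from 13037308 to 13056676) and Proz (chromosome 8 from 13060914 to 13076026) follow each other with gaps of 1.5 and 4.2 kb, and F11 (chromosome 8 from 45241174 to 45262031) lies 4.7 kb from Klkb1. RefSeq promoter windows of GRCm38.p6, from 250 bases before to 50 bases after the start site, were found for 25 of the 33 genes. The bases before the start, as far as they lie outside the GENCODE gene, are printed 5′ to 3′ on the strand of the gene for the 3 fibrinogen chains, which encode 1 protein, and for F7 and F11, which had the largest decreases. Capitals mark matches to the HNF1 motif GTTAATNAT, the HNF4 motif CAAAGTCCA, the C/EBP motif TTGCNNAA or the TATA box TATAAA on either strand, with N any base and no mismatch. The stretches are 250 bases long, and 173 bases for Fga, whose RefSeq start lies inside the GENCODE gene so that 77 bases were left out. They lie at chr3:83025903-83026075 (plus strand), chr3:83049864-83050113 (minus), chr3:83007474-83007723 (plus), chr8:13025784-13026033 (plus) and chr8:45262032-45262281 (minus).
Fga: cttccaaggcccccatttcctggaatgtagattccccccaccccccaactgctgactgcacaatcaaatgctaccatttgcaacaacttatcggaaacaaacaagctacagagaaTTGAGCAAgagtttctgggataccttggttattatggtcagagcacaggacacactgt
Fgb: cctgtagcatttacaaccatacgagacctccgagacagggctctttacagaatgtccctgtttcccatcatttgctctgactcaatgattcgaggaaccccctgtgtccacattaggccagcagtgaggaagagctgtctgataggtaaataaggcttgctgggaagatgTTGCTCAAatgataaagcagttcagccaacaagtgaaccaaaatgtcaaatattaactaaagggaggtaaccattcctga
Fgg: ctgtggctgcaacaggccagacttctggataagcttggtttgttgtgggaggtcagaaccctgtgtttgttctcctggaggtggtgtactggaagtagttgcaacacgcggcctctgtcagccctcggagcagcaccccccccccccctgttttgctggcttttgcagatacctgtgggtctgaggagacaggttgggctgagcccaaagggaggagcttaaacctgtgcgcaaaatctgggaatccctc
F7: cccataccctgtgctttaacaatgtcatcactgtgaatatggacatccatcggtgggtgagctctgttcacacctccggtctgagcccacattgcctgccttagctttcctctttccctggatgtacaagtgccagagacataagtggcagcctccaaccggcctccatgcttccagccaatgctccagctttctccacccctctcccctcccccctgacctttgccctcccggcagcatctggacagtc
F11: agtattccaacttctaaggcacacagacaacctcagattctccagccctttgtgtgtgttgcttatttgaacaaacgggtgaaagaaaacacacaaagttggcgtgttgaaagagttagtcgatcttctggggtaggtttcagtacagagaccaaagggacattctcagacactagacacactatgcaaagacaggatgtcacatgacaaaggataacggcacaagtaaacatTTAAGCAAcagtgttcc

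Relative to the RefSeq start site, Fga held a C/EBP match from -135 to -128 and, in the bases not printed, an HNF1 match from -46 to -38, Fgb a C/EBP match from -80 to -73 and F11 a C/EBP match from -17 to -10, whereas none of the 4 motifs was found before the start of Fgg or F7. No matches overlapped in these windows. Over the full windows, a C/EBP match was present in 10 of the 25 members (40.0%) and in 10.7% of the windows of all 27025 genes in the RefSeq table. The HNF1 match was present in 2 members (F13b and Fga; 8.0%) and in 0.844% of all windows, the TATA box in 4 members (16%) and in 14.2%, and the HNF4 match in 0 members and in 0.474%. Among the members lowered at 5 mg/kg in either sex, 8 of the 18 with a window held a C/EBP match, and among the others 2 of 7. These are matches of letters in a short window and no binding was measured.

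Transcripts of the coagulation and fibrinolysis genes were lower at 5 mg/kg in both sexes, and none of the 31 was called as raised against the controls. In males, 20 of 31 members were lowered at a p under 0.10 adjusted over all probes, beside 8.49% of all 18570 probes tested, and in females 15 of 31 were lowered, beside 2.26% of all probes. The median log2FC of the members was -0.74 in males and -0.60 in females, where the median of all probes was -0.12 and -0.01. Every mouse at 5 mg/kg lay below every control of its sex for 17 members in males and 14 in females, as did 4.8% and 4.31% of all probes. The number of members lowered in females was 7 without replicate 3 at 5 mg/kg and 9 without control replicate 2, and it was 20 by DESeq2 and 21 with each sex fitted apart. In these whole sections, fewer hepatocytes and less RNA per hepatocyte cannot be told apart.

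Members of each role were lowered. In males, 10 of 17 procoagulant, 5 of 8 anticoagulant and 4 of 5 fibrinolytic genes tested were lowered, with median log2FC of -0.72, -0.69 and -0.93, and Ggcx was lowered as well. In females the counts were 9 of 17, 3 of 8 and 2 of 5, with medians of -0.69, -0.49 and -0.58, and Ggcx was again lowered. The 13 genes lowered in both sexes, of the 20 in males and of the 15 in females, were F2, F7, F9, F10, F11, Fgb, Kng1, Pros1, Serpinc1, Serpina10, Plg, Serpinf2 and Ggcx. F5, Fga, Fgg, Proc, Serpind1, Cpb2 and Hrg passed the threshold in males alone, and F12 and F13b in females alone. Other settings also called 5 of the 7 genes of males alone in females: DESeq2 called Fga, Serpind1, Cpb2 and Hrg, and a fit of each sex apart called the same genes and F5. Of each of the 33 genes, only the probe with the most counts enters the following shares. Together, these probes took 2.59 ± 0.34% of all counts in male controls (SD, n = 5) and 1.64 ± 0.081% at 5 mg/kg (SD, n = 4). In females they took 3.13 ± 0.32% (SD, n = 5) and 2.20 ± 0.53% (SD, n = 4).

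**Figure D1:**
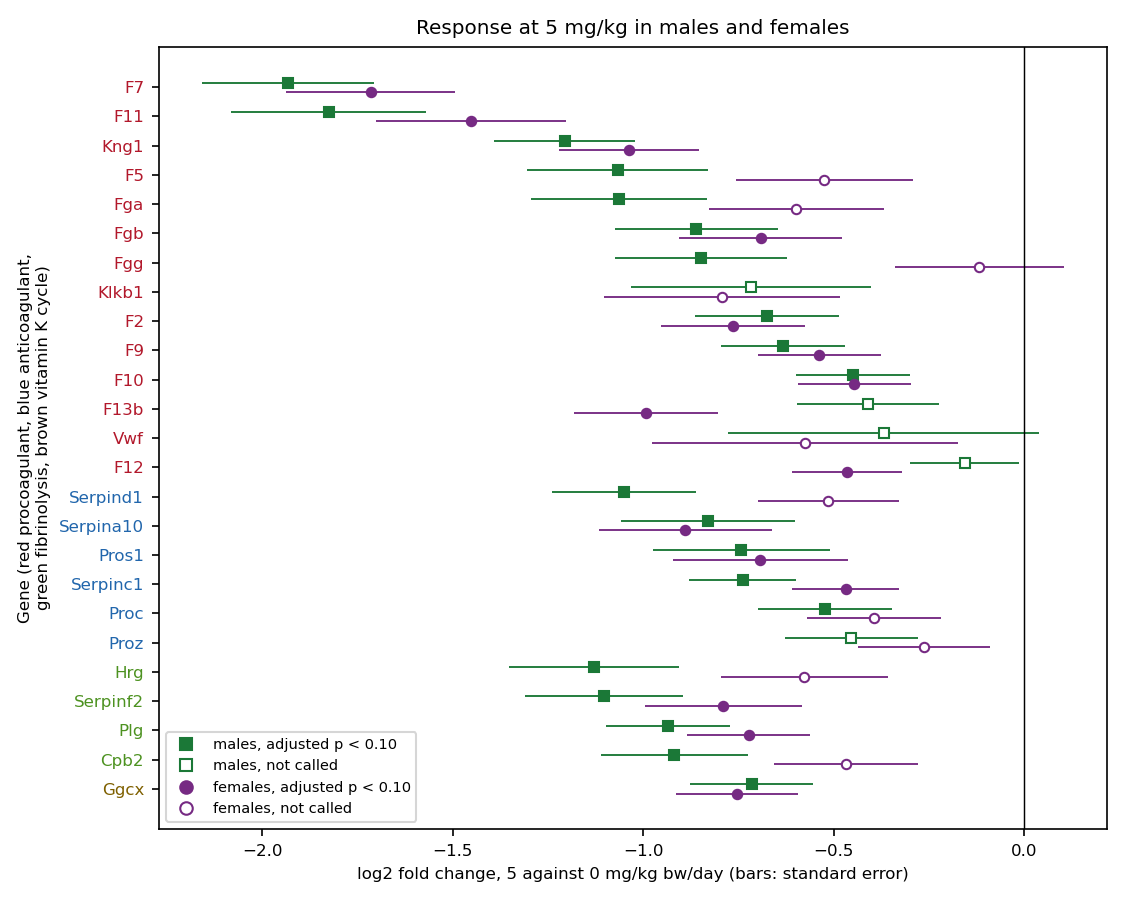
log2FC at 5 against 0 mg/kg bw/day (x axis) of the 25 members with a mean of at least 10 CPM (y axis, coloured by role), in males (squares) and females (circles), with standard errors as bars. Filled symbols had an adjusted p under 0.10, and all 25 genes lie below 0 in both sexes, from -1.93 for F7 to -0.16 for F12 in males and from -1.72 for F7 to -0.12 for Fgg in females.

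The largest decrease was that of F7, whose product initiates the extrinsic arm and is a vitamin K-dependent protease. The 5 male controls had 128, 170.5, 126, 121 and 120.4 CPM and the 4 males at 5 mg/kg 24.5, 50.8, 17.3 and 45.1 CPM. The 5 female controls had 249, 181, 160.0, 205 and 216 CPM and the 4 females at 5 mg/kg 55.7, 61.7, 58.03 and 71.03 CPM. Every treated mouse was thus below every control of its sex, with no overlap. The log2FC was -1.93 in males (standard error 0.23; Benjamini-Hochberg adjusted p = 3.53e-08 by the quasi-likelihood test of edgeR) and -1.72 in females (standard error 0.22, adjusted p = 5.34e-07 by the same test). The means at 0.1 and 0.5 mg/kg were 109.7 ± 17.2 CPM (SD, n = 5) and 93.9 ± 25.1 CPM (SD, n = 5) in males and 189 ± 20.3 CPM (SD, n = 5) and 155 ± 26.1 CPM (SD, n = 4) in females. They lay between those of the controls and of 5 mg/kg, with overlap between the mice of 0, 0.1 and 0.5 mg/kg.

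F11, the zymogen of factor XI in the intrinsic arm, followed. Male controls had 80.6, 100.3, 74.6, 79.6 and 84.8 CPM and males at 5 mg/kg 34.4, 18.98, 21.4 and 20.2 CPM. Female controls had 107, 91.96, 62.5, 64.5 and 77.7 CPM and females at 5 mg/kg 27.7, 19.9, 22.8 and 47.6 CPM. The groups did not overlap in either sex, although 1 mouse at 5 mg/kg stood above the other 3 in each. The log2FC was -1.83 in males (standard error 0.26, adjusted p = 1.72e-06 by edgeR) and -1.45 in females (standard error 0.25, adjusted p = 9.46e-05 by edgeR). At 0.5 mg/kg the means were 70.5 ± 24.2 CPM (SD, n = 5) in males and 58.7 ± 14.1 CPM (SD, n = 4) in females.

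Kng1, which encodes kininogen, the precursor of bradykinin and a cofactor of the contact factors, was lowered in both sexes. Male controls had 2242, 2456, 1443, 2169 and 1513 CPM and males at 5 mg/kg 1012, 962, 624 and 809 CPM. Female controls had 3212, 3712, 2256, 3713 and 3648 CPM and females at 5 mg/kg 1680.3, 1806, 1398 and 1565 CPM. The ranges did not overlap, and the control females sat above the control males with the exception of 1 mouse. The log2FC was -1.21 in males (standard error 0.19, adjusted p = 9.41e-06 by edgeR) and -1.04 in females (standard error 0.18, adjusted p = 0.000169 by edgeR). The other probes of Kng1 had log2FC of -0.87 and -1.20 in males and -0.87 and -1.05 in females. Kng2 is a close paralog of Kng1 in the mouse, and how reads of the pair divide between their probes is uncertain. Kng2 had log2FC of -1.11 in males and -0.63 in females.

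Hrg, which encodes histidine-rich glycoprotein, a plasma protein that binds plasminogen and heparin, was lowered in males. Male controls had 205, 262, 238, 197 and 187 CPM and males at 5 mg/kg 129, 54.7, 143 and 73.9 CPM, a log2FC of -1.13 (standard error 0.22, adjusted p = 0.000518 by edgeR). Female controls had 316, 375, 206, 252 and 397 CPM and females at 5 mg/kg 199, 218, 204 and 208 CPM, a log2FC of -0.58 (standard error 0.22, adjusted p = 0.186 by edgeR). In males no treated mouse reached the lowest control, whereas in females 1 control of 206 CPM lay within the treated range.

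F13b, the carrier subunit of factor XIII, was lowered in females. Female controls had 159, 222, 184, 208 and 213 CPM and females at 5 mg/kg 107, 85.3, 83.1 and 122 CPM, without overlap, at a log2FC of -0.99 (standard error 0.19, adjusted p = 0.000463 by edgeR). Male controls had 241, 138, 112, 174 and 182 CPM and males at 5 mg/kg 116, 154, 125 and 116 CPM, with overlap, at a log2FC of -0.41 (standard error 0.19, adjusted p = 0.174 by edgeR). The difference between the sexes in this response did not pass the threshold either (log2 difference 0.58, males minus females; standard error 0.26, adjusted p = 0.413 for the interaction by edgeR).

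**Figure D2:**
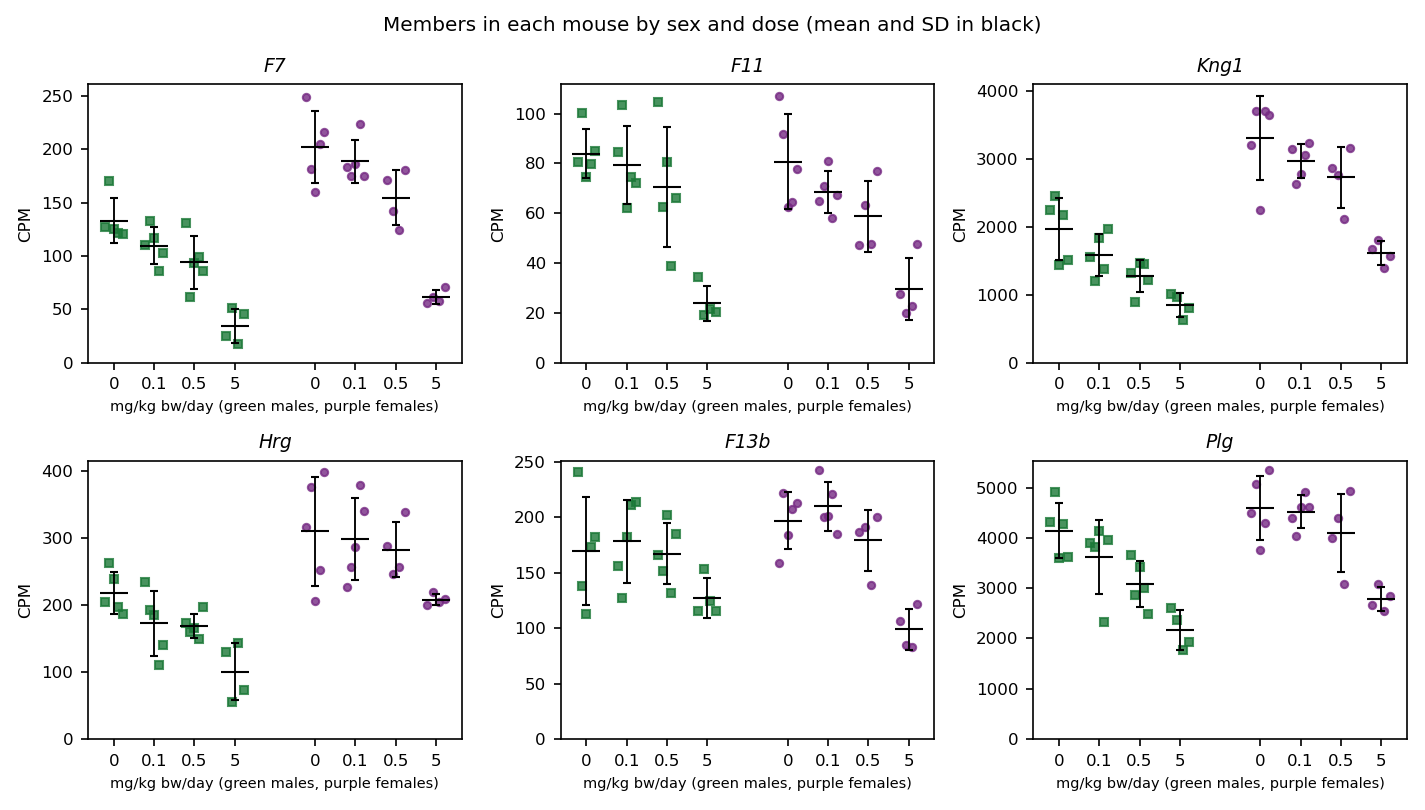
CPM (y axis, from 0) of F7, F11, Kng1, Hrg, F13b and Plg in each mouse by dose (x axis, mg/kg bw/day), males in green squares and females in purple circles, with the mean and SD of each group in black. The mice at 5 mg/kg lie below all controls of their sex in both sexes for F7, F11, Kng1 and Plg, in males alone for Hrg and in females alone for F13b.

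The 3 chains of fibrinogen, the substrate of thrombin, fell in males. For Fga, male controls had 3560.0, 5598, 2795, 3278 and 2749 CPM and males at 5 mg/kg 1938, 1967, 1046 and 1933 CPM. For Fgb, they had 1373, 2019, 1094, 1106 and 1281 and 902, 804, 557 and 765 CPM. For Fgg, they had 4634, 8685, 6152, 5481 and 3957 and 3128, 3862, 2290.4 and 3570.2 CPM. In each chain the 4 treated males lay below the 5 controls, and replicate 2 was the highest control (replicate numbers only name the mice). The log2FC in males were -1.06 for Fga (standard error 0.23, adjusted p = 0.00167), -0.86 for Fgb (standard error 0.21, adjusted p = 0.00665) and -0.85 for Fgg (standard error 0.23, adjusted p = 0.0118), each by edgeR. In males the other probes gave -0.93, called, and -0.30, not called, for Fga, and -1.25, not called, for Fgb.

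In females the chains were more spread at 5 mg/kg. For Fga, female controls had 3512, 3977, 3359, 4235 and 4374 CPM and females at 5 mg/kg 2108, 4219, 1731 and 2230.5 CPM. For Fgb, they had 1633, 2235, 1457, 2107 and 2198 and 979, 1847, 809 and 1136 CPM. For Fgg, they had 4884, 4259.6, 3782, 3769 and 5139 and 3388, 7011, 2777 and 2931 CPM. Replicate 2 at 5 mg/kg was within or above the control range for all 3 chains, while the other 3 treated females lay below all controls for each of them. The log2FC were -0.60 for Fga (standard error 0.23, adjusted p = 0.193), -0.69 for Fgb (standard error 0.21, adjusted p = 0.0615) and -0.12 for Fgg (standard error 0.22, adjusted p = 1), each by edgeR. Without replicate 2 they were -0.96 (adjusted p = 0.0105), -0.996 (adjusted p = 0.00387) and -0.54 (adjusted p = 0.266), so that Fga then passed the threshold in edgeR's test. Without replicate 3 or replicate 4 at 5 mg/kg, the value of Fgg was 0.024 or 0.0075. The call of Fgb in females held in 3 of 9 fits that left out 1 mouse. The other probe of Fgg gave -0.44 in females (adjusted p = 0.34 by edgeR) and -1.10 in males, where it was called. In females the other probes gave -0.36 and -0.31 for Fga and -0.24 for Fgb, none of them called.

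Within a mouse, the balance of the chains was compared as a log2 ratio of CPM, which carries the probes' own efficiencies in both groups alike. Fgb to Fga was -1.37 ± 0.17 in male controls (SD, n = 5) and -1.16 ± 0.20 at 5 mg/kg (SD, n = 4; exact two-sided permutation test, p = 0.111, adjusted p = 0.222 over the 4 ratios tested). Fgg to Fga was 0.68 ± 0.29 and 0.92 ± 0.18 in males (exact permutation test, p = 0.206, adjusted p = 0.275). In females Fgb to Fga was -1.03 ± 0.14 and -1.09 ± 0.090 (exact permutation test, p = 0.524, adjusted p = 0.524), and Fgg to Fga was 0.16 ± 0.23 and 0.62 ± 0.15 (exact permutation test, p = 0.0317, adjusted p = 0.127). The smallest p that 4 mice against 5 allow is 0.0159, and none of the 4 ratios passed an adjusted p of 0.10.

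**Figure D3:**
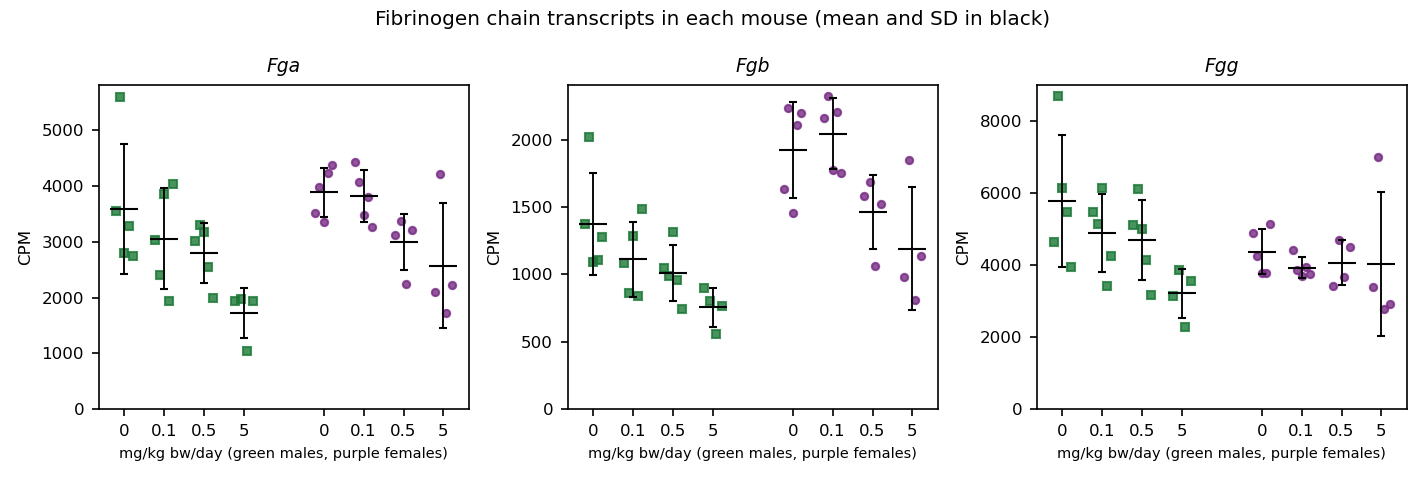
CPM (y axis, from 0) of Fga, Fgb and Fgg in each mouse by dose (x axis, mg/kg bw/day), males in green squares and females in purple circles, with the mean and SD of each group in black. At 5 mg/kg the males lie below their controls for each chain, and among the females 1 mouse stands apart, at 7011 CPM for Fgg.

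The other procoagulant members of the common and intrinsic arms with a mean of at least 10 CPM moved by less than F7, F11 and Kng1. F2, prothrombin, ranged from 147 to 231 CPM in male controls and 92.3 to 149 CPM at 5 mg/kg, and from 224 to 328 and 140.0 to 172 CPM in females. Its log2FC was -0.67 in males and -0.76 in females, and both passed the threshold. The other probe of F2 gave -0.90 in males, which was called, and -0.66 in females, which was not. F9 and F10, the vitamin K-dependent factors IX and X, had log2FC of -0.63 and -0.45 in males and -0.54 and -0.45 in females, and all 4 were called. The call of F10 in females (adjusted p = 0.099 by edgeR) held in 1 of 9 fits that left out 1 mouse, and that of F9 in 4 of 9. In males the call of F10 held under 5 of 10 other settings. F5, the cofactor of factor Xa, had a log2FC of -1.07 in males, which was called, and of -0.52 in females (adjusted p = 0.309 by edgeR). F12 had -0.16 in males (adjusted p = 0.583 by edgeR) and -0.46 in females, where it was called on the probe used, while its other probes gave -0.13 and 0.21. The call of F12 in females held in 4 of 9 fits that left out 1 mouse. Klkb1 and Vwf were not called in either sex, with log2FC of -0.72 and -0.37 in males and -0.79 and -0.57 in females. In females Klkb1 was called by DESeq2, with each sex fitted apart and without the 3 mice of lowest depth. In males it was called without replicate 1 at 5 mg/kg or without control replicate 3.

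F7 and F11, which had the largest decreases, fell by more than the genes next to them. Other neighbours lay closer together in males. Fga, Fgb and Fgg had log2FC of -1.06, -0.86 and -0.85 in males and -0.60, -0.69 and -0.12 in females. Hrg and Kng1, 96.2 kb apart, had -1.13 and -1.21 in males and -0.58 and -1.04 in females. F7 had log2FC of -1.93 and -1.72 in males and females, beside -0.45 and -0.45 for F10 and -0.45 and -0.26 for Proz, which encodes protein Z and was not called on the probe used. In males Proz was near the threshold (adjusted p = 0.1002 by edgeR). It was called there with a mean of at least 10 counts, with a robust fit and with the probes of a gene summed. The other probe of F10 gave -0.73 and -0.52, both called, and that of Proz -0.65 in males, which was called, and -0.43 in females, which was not. F11 had -1.83 and -1.45, beside -0.72 and -0.79 for Klkb1. The standard errors of these values ranged from 0.15 for F10 in males to 0.31 for Klkb1 in males, and the differences between neighbours were not tested.

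Among the anticoagulant genes, the serpins fell in males. Serpinc1, antithrombin, ranged from 1649 to 2102 CPM in male controls and 974 to 1275 CPM at 5 mg/kg, and from 2053 to 2575 and 1592 to 1755 CPM in females. Its log2FC was -0.74 in males and -0.47 in females, both called on the probe used. Its other probes gave -0.78, called, and -0.41, not called, in males, and -0.41 and -0.20 in females, neither called. The call in females held in 3 of 9 fits that left out 1 mouse. Serpind1, heparin cofactor II, had -1.05 in males, which was called, and -0.51 in females (adjusted p = 0.15 by edgeR). Serpina10, the inhibitor of factor Xa that works with protein Z, had -0.83 and -0.89, both called, while its other probe gave -0.24 and -0.03, neither called. Proc, the zymogen of protein C, had -0.52 in males, which was called, and -0.39 in females (adjusted p = 0.313 by edgeR). The call of Proc in males held under 4 of 10 other settings and was lost by DESeq2. Pros1, the cofactor of protein C, had -0.74 and -0.69, both called on the probe used, while its other probe gave -0.94 and -0.29, neither called. The call of Pros1 in females (adjusted p = 0.0974 by edgeR) held in 2 of 9 fits that left out 1 mouse.

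The fibrinolytic genes with enough counts fell in males as well. Plg, plasminogen, ranged from 3608 to 4902 CPM in male controls and 1767 to 2608 CPM at 5 mg/kg, and from 3750.4 to 5348 and 2543 to 3074 CPM in females. Its log2FC was -0.93 in males and -0.72 in females, both called. Serpinf2, α2-antiplasmin, which inhibits plasmin, had -1.10 and -0.79, both called. Cpb2, the carboxypeptidase that protects fibrin from plasmin, had -0.92 in males, which was called, and -0.47 in females (adjusted p = 0.236 by edgeR). The zymogen of plasmin and its inhibitor were thus both lower in both sexes. Ggcx, the γ-carboxylase, ranged from 205 to 286 CPM in male controls and 98.1 to 173 CPM at 5 mg/kg and from 250.1 to 337 and 149 to 202 CPM in females. Its log2FC were -0.71 and -0.75, both called on the probe used. The other probe of Ggcx gave -0.54 in males, which was not called, and -0.87 in females, which was.

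The remaining tested members had few counts in liver, and no fold change is given for them. F3 had at most 36 counts in any mouse and 0 counts in 15 of the 37, F13a1 at most 55 and 0 in 12, Tfpi at most 64 and 0 in 13, Plau, the urokinase activator, at most 104 and 0 in 4, F8 at most 141 and 0 in 4, and Thbd at most 172 and 0 in 2. None of these 6 passed the threshold against the controls in either sex, and their low counts limit what a test at this depth can show.

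At the lower doses no member was called. At 0.5 mg/kg, edgeR called 0 of 31 in males and 0 of 31 in females, where 0.242% and 0.00539% of all probes were called as lowered. The unadjusted p was under 0.05 for 9 members in males and 3 in females, and the shares of all probes at that p are not given here. The 9 in males included F3, which had no counts in any male at this dose. DESeq2 called 1 member in males, Kng1, and 0 in females. Among the 25 members with a mean of at least 10 CPM, 24 in males and 21 in females lay below 0, beside 54.5% and 51.4% of all probes, with median log2FC of -0.31 and -0.19. At 5 mg/kg all 25 lay below 0 in each sex, beside 55.6% and 50.6% of all probes. These shares of all probes carry no limit on CPM. Among the members under 10 CPM, Plau and F13a1 lay above 0 at 5 mg/kg in both sexes.

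Kng1 came closest at 0.5 mg/kg in males, with 1321, 889, 1466, 1458 and 1223 CPM in the 5 mice and a log2FC of -0.63 (standard error 0.17, adjusted p = 0.1015 by edgeR). Of these, 2 mice reached the range of the controls. The other probes of Kng1 gave log2FC of -0.26 and 0.05 at this dose, and over all members with several tested probes 16 of 21 other probes in males and 11 of 21 in females had the sign of the probe used. All treated mice lay below all controls for Serpinc1 in males (log2FC -0.31) and for Serpinf2 in females (log2FC -0.53), 1 of 31 in each sex, beside 0.695% and 1.49% of all probes.

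At 0.1 mg/kg, edgeR called 0 of 31 members in each sex, as it did 0% of all probes in either. The unadjusted p was under 0.05 for 0 members in males, beside 1325 of all 18570 probes. In females it was so for 1 member, Ggcx, and the share of all probes is not given here. DESeq2 also called 0 members in either sex. Of the 25 members, 22 in males and 20 in females lay below 0, with median log2FC of -0.15 and -0.08. Of all probes, with no limit on CPM, 52.5% and 48.6% did. For 0 members did all treated mice lie below all controls, beside 0.366% of all probes in males and 0.474% in females. These comparisons share the control mice of each sex with those at 0.5 and 5 mg/kg, so that a high or low control moves them together.

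**Figure D4:**
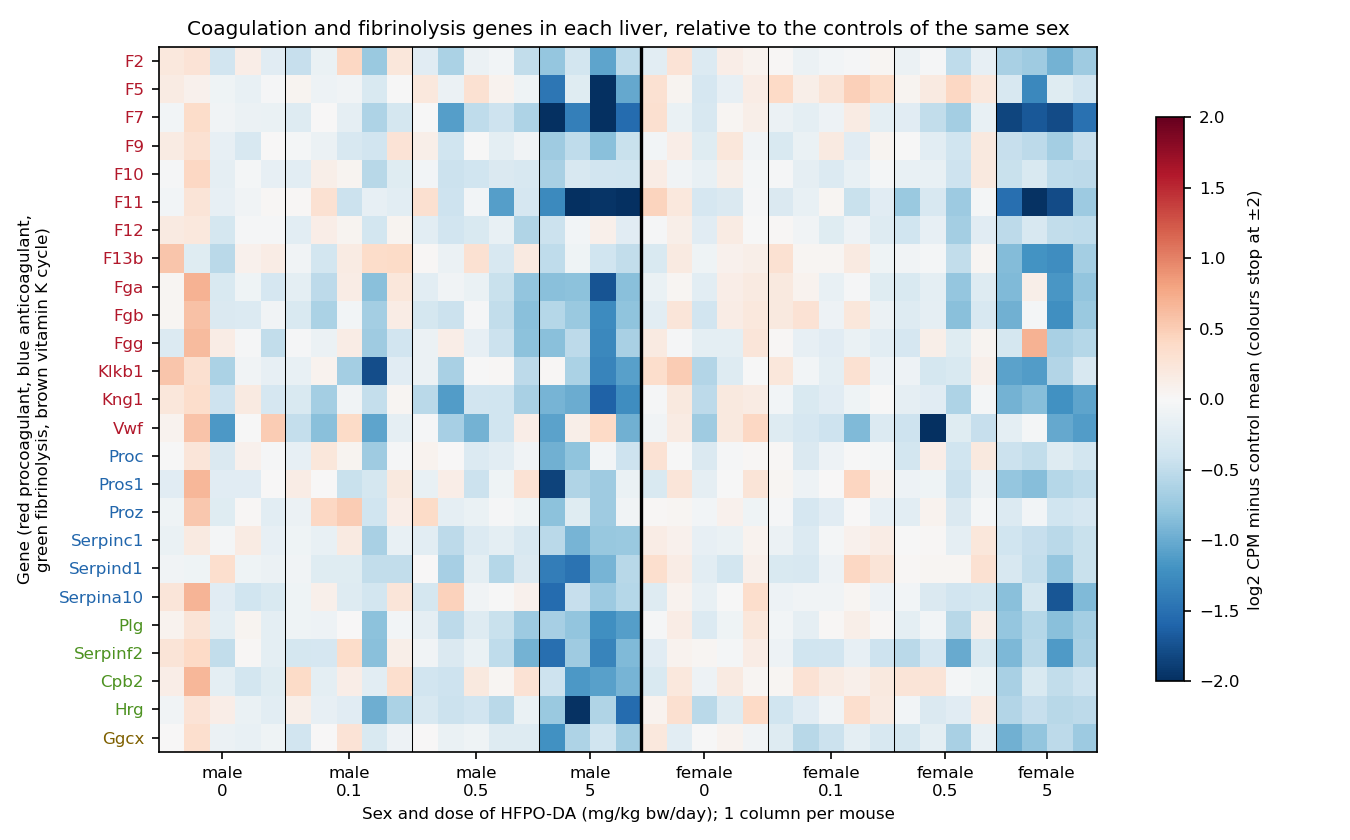
Each liver (columns, by sex and dose in mg/kg bw/day) and each of the 25 members with a mean of at least 10 CPM (rows, coloured by role), with log2 CPM minus the mean of the controls of the same sex as colour, red above and blue below. In the 4 males at 5 mg/kg 23 to 25 of the 25 members lie below the control mean, as in the 4 females, and in single controls 2 to 24 do.

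Over the doses, the group means of the 25 members fell at every step from 0 to 5 mg/kg for 15 in males and 13 in females. The group at 5 mg/kg was the lowest for 23 in each. The share of all probes in these orders was not computed, and edgeR called no member at 0.1 or 0.5 mg/kg. The median deviation of the members from the control mean in single mice (log2) was -0.63 to -0.92 for males given 5 mg/kg and -0.48 to -0.68 for such females, beside -0.23 to 0.33 in male controls and -0.23 to 0.13 in female controls. At 0.5 mg/kg it was -0.12 to -0.42 in males and -0.04 to -0.41 in females. The plot of single livers shows that 1 male at 0.1 mg/kg, replicate 4, with a median deviation of -0.56, lay apart from the other 4 of its group, at -0.11 to 0.05. This mouse had the lowest depth of its group, and the part of depth in its values was not tested.

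Against 0.5 mg/kg, the males at 5 mg/kg had 15 members lowered, beside 5.57% of all probes, and females had 4, F7, F11, F13b and Kng1, beside 0.84%. The females' count was 2, F7 and F13b, without replicate 3 at 5 mg/kg or replicate 4 at 0.5 mg/kg. In males, F7 and F11 had log2FC of -1.43 and -1.57 in this comparison, and in females of -1.33 and -0.99. One member, F3, was called as raised in males (adjusted p = 0.0719 by edgeR), as were 3.16% of all probes. Its call rests on 0 counts in all 5 males at 0.5 mg/kg and on 28 counts at most at 5 mg/kg, where 2 of the 4 mice also had 0. Leaving out replicate 3 of the males at 5 mg/kg, the mouse of lowest depth, the members called in males, F3 included, numbered 10 in place of 16.

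No member passed the threshold for a difference between the sexes in the response. At 5 mg/kg edgeR called 0 of 31, beside 0.63% of all probes in either direction, with 3 members at an unadjusted p under 0.05, and DESeq2 called 0. These were Fgg (log2 difference -0.73, males minus females; standard error 0.31, adjusted p = 0.394), Serpind1 (-0.54, standard error 0.26, adjusted p = 0.454) and F13b, given above. At 0.5 mg/kg 0 members were called, beside 0.0108% of all probes, with 1 at an unadjusted p under 0.05, and at 0.1 mg/kg 0 were called, beside 0%, with 0 at an unadjusted p under 0.05. DESeq2 called 0 members at either dose. The shares of all probes at an unadjusted p under 0.05 are not given here, so these counts of members are not set against them. A difference in response that misses the threshold with 4 or 5 mice a group does not show that the sexes responded alike.

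In the mice given water, 3 of the 31 members differed between control males and control females, all lower in males, beside 2.6% of all probes called in either direction. Kng1 had 1965 ± 457 CPM (SD, n = 5) in males and 3308 ± 624 CPM (SD, n = 5) in females, a log2FC of -0.75 (standard error 0.17, adjusted p = 0.00685 by edgeR). Cpb2 had 187 ± 59.7 CPM (SD, n = 5) and 278 ± 39.1 CPM (SD, n = 5) (log2FC -0.57, adjusted p = 0.0974 by edgeR), and Serpina10 had 82.03 ± 27.8 CPM (SD, n = 5) and 131 ± 22.2 CPM (SD, n = 5) (log2FC -0.68, adjusted p = 0.0974 by edgeR). Cpb2 and Serpina10 each lost the call in 8 of 10 fits that left out 1 control mouse, and Kng1 was called in all 10. The control females had raised litters, and this cannot be told apart from their sex.

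Of 22 further genes of the pathway that are not members, 19 were tested. In males at 5 mg/kg 6 were lowered, beside 8.49% of all probes, and 3 raised. In females 3 were lowered, beside 2.26% of all probes, and 1 raised. The shares of all probes raised are not given here. In males the smallest adjusted p values belonged to Hgfac, a protease that activates hepatocyte growth factor and resembles factor XII (log2FC -2.56), Serping1, the C1 inhibitor, which also inhibits kallikrein and factor XIIa (-1.18), S100a10, a surface partner of annexin A2 that binds plasminogen (1.37), and Kng2 (-1.11). In females they belonged to Tfpi2, an inhibitor of plasmin and other proteases (1.16), Hgfac (-1.40), Habp2, a protease that can activate factor VII (-0.74), and Kng2 (-0.63). Tfpi2 was raised in males too, with a log2FC of 0.63. At 0.5 mg/kg, Hgfac was the only one of the 19 called, in males (log2FC -1.29, adjusted p = 0.00148 by edgeR).

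Other genes moved along with the members. At 5 mg/kg, 8.49% of all probes were lowered in males and 2.26% in females. Of 11 hepatocyte markers tested, 7 were lowered in males and 4 in females, with median log2FC of -0.81 and -0.31. Their summed level ranged from 37768 to 52858 CPM in male controls and from 22189 to 28724 CPM at 5 mg/kg, and from 30064 to 43054 and from 31532 to 36615 CPM in females. Of 12 hepatocyte transcription factors, Foxa3 (log2FC -1.003) and Nr1h4 (-0.53) were lowered in males and Rxra (-0.55) in females, while Cebpa, and Hnf4a among the markers, were not called in either sex. Of 12 endothelial markers, Oit3 (-1.03) and Kdr (-0.95) were lowered in males and 0 in females, and their summed level was 495 to 644 and 459 to 584 CPM in males and 493 to 585 and 433 to 523 CPM in females at 0 and 5 mg/kg. Of 10 Kupffer cell, 8 stellate cell and 4 cholangiocyte markers tested 0 were called in either sex, and no marker of these lists was at 0 in every mouse. Their summed levels at 0 and 5 mg/kg overlapped, at 105 to 476 and 150.4 to 412 CPM in males and 237 to 499 and 286 to 587 CPM in females for Kupffer cells, at 228 to 368 and 312 to 526 CPM in males and 229.8 to 369 and 246 to 333 CPM in females for stellate cells, and at 2.79 to 77.0 and 5.10 to 33.8 CPM in males and 7.75 to 69.1 and 10.9 to 30.02 CPM in females for cholangiocytes. The 5 platelet markers in the table together had at most 4.83 CPM in any control or 5 mg/kg mouse, and of the 2 tested Pf4 was called as lowered in males. The part of these genes in the result was not tested.

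As a check of the exposure, Ehhadh, Cyp4a14 and Hsd17b11, which act in or respond to fatty acid oxidation, were raised in both sexes at 5 mg/kg, with Ehhadh at a log2FC of 5.51 in males and 5.03 in females. Ehhadh and Cyp4a14 were raised in both sexes at the dose of 0.5 mg/kg as well, and Hsd17b11 in males. The total count of a mouse was 2101495 to 10548222 among the 19 males and 7952605 to 13878254 among the 18 females. Among males they were 6947711 to 9365709 in the controls and 2101495 to 9098192 at 5 mg/kg. Without the 3 mice of lowest depth, all males, the same 20 members were called in males at 5 mg/kg, and in females 19 were called in place of 15, with Fga, Hrg, Klkb1 and Serpind1 added. No source says whether the mice of a group shared a litter or cage, and p-values measure the spread between these mice. Among members with several tested probes, 20 of 21 other probes in males and 18 of 21 in females had the sign of the probe used, and of the other probes of called genes 8 of 14 in males and 5 of 13 in females were called too.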

How the data were processed

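Liver sections of 40 mice, 5 per group, were assayed by TempO-Seq. The authors deposited whole-number counts of reads per probe, 1 column for each mouse kept, without normalization. The submitters' processing notes name bcl2fastq 2.17.1.14 and Bowtie, and the genome build used for the probes is not given in the sources used here. Of 40 planned mice, 5 per group, 37 have columns, and groups follow the labels of sex and dose. The replicate numbers only name the mice. No 2 columns were identical.

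Counts of the 30146 probes were tested in edgeR 4.0.16 (R 4.3.3) with filterByExpr over the 8 groups, which left 18570 probes, TMM scaling, a mean for each group and the quasi-likelihood test. P-values were adjusted by Benjamini-Hochberg over all 18570 probes with a threshold of 0.10. Each gene was read from its probe with the most counts. Ratios of fibrinogen chains were compared by exact two-sided permutation tests. DESeq2 1.42.0 and other scalings, filters and thresholds were run as alternatives, and the code was tested on simulated data.

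The members and gene lists were chosen with earlier results of these data known, so no test was run on a list as a whole. Full values are given for the fibrinogen chains and for the 4 called members of largest log2 fold change at 5 mg/kg in each sex. They were also planned for members called at lower doses or raised at 5 mg/kg against the controls. The same held for members with a called sex difference in the response at 5 mg/kg. There were none of these. Kng1 at 0.5 mg/kg in males, F3 and the low-count members were added after their values were seen. Of other lists, called genes are given by counts with up to 4 examples. Fold changes of members with a mean under 10 CPM are left out. Positions come from GENCODE vM21 (GRCm38). Features of the proteins were planned and not analysed here. A gene listed for the check of the exposure is not reported here. Total counts per mouse, given in the report, limit the precision of the low-count members.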

Additional observations from a re-analysis of the deposited data

Results flagged for a closer look

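Single mice stood apart from the rest of their group in 6 of 64 groups tested, over 8 genes, by Dixon's test, which flags about 1 in 20 groups by chance. For F7, male control replicate 2 had 170.5 CPM, with the next at 128, and the female at 0.1 mg/kg replicate 4 had 224 CPM, with the next at 186. For F11, replicate 1 of the males at 5 mg/kg had 34.4 CPM and the next had 21.4. For Fga, male control replicate 2 had 5598 CPM, with the next at 3560.0, and replicate 3 of the males at 5 mg/kg, the mouse of lowest depth, had 1046 CPM against 1933 in the nearest. For Fgg, replicate 2 of the females at 5 mg/kg had 7011 CPM and the next had 3388.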

How the results depend on the processing

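At 0.1 mg/kg, and for the difference between the sexes at each dose, 0 members were called under every alternative run, as in females at 0.5 mg/kg. In males at 5 mg/kg the 20 members lowered became 17 to 21 under other settings and 17 to 23 with 1 mouse left out, and in females the 15 became 9 at a threshold of 0.05, 12 to 21 under the other settings (19 without the 3 mice of lowest depth, 20 by DESeq2, 21 with each sex fitted apart) and 7 to 16 with 1 mouse left out. Of the members lowered, 17 in males (all but F10, Proc and Pros1) and 7 in females (F2, F7, F11, F13b, Kng1, Plg and Ggcx) were called under all 19 alternatives. In males at 0.5 mg/kg 1 member, Kng1, was called with DESeq2 size factors, with no filter, with a mean of at least 10 counts, with a robust fit and by DESeq2, and 0 to 1 with 1 mouse left out. Against 0.5 mg/kg, the 16 calls in males became 6 with each sex fitted apart, 9 at a threshold of 0.05 and 10 to 17 with 1 mouse left out, and the 4 in females became 10 with each sex fitted apart, 7 without the 3 mice of lowest depth, 12 by DESeq2 and 2 to 6 with 1 mouse left out. Between control males and females the 3 became 1 with upper quartile scaling, 1 with no filter, 1 at a threshold of 0.05, 5 by DESeq2 and 1 to 5 with 1 mouse left out. The difference between 5 mg/kg and control males in the log2 ratio of Fgb to Fga ranged from 0.13 to 0.28 with 1 mouse left out and passed the threshold without control replicate 5. The log2 fold change of Fgg in females ranged from -0.54 to 0.024 with 1 mouse left out and changed sign without replicate 3 (0.024) or replicate 4 (0.0075) at 5 mg/kg. The cause of these changes was not tested, apart from the stricter threshold. The median of all probes in males at 5 mg/kg was -0.12 with TMM and -0.04 to 0 under other scalings. No paired analysis was possible because replicate numbers were given in accession order to different animals. Depth limits the 6 members with under 10 CPM, and the 3 mice of lowest depth are all males.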
